A study of Homo sapiens with 6 samples.

Results

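The CTCF peaks described here were 800 bp wide and lay more than 5 kb from any H3K27ac peak in human neurons. The neurons were grown from neural progenitors of the KOLF2.1J line, an established line of induced pluripotent stem cells. They were chosen by their width, which had to be exactly 800 bp, and by the absence of an H3K27ac peak within 5 kb of the interval, on chromosomes 1 to 22 and X. Of 43430 distinct CTCF intervals, 7361 met both conditions (16.9%, 95% Wilson interval 16.6 to 17.3%). In the whole list, 33.5% of intervals were 800 bp wide and 56% had no H3K27ac peak within 5 kb. Width and H3K27ac distance are therefore given only as a description, and the same holds for the CTCF signal, which comes from the list that supplied the width.

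The 6 samples were 2 CTCF, 2 H3K27ac and 2 input libraries of neurons from this 1 line, differentiated by a published protocol and profiled by chromatin immunoprecipitation and sequencing (ChIP-seq); the labels do not say whether replicates were separate cultures. The experiments belong to a search for elements that regulate MAPT, which encodes the microtubule-associated protein tau. Each antibody had 1 deposited peak list that covered both replicates, so no spread between replicates and no test between conditions could be computed, and the read depth behind each peak is unknown. All 15 neuron marker genes examined overlapped an H3K27ac peak, as did 11 of 11 neural progenitor markers, 8 of 13 astrocyte and oligodendrocyte markers, 2 of 7 pluripotency markers and 3 of 12 liver and muscle markers. Over all 19974 protein-coding genes the share was 69%, which the glial markers did not exceed. In a culture profiled in bulk, binding in few cells and weak binding in many cells cannot be told apart.

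CTCF is a zinc finger protein that binds DNA through a long motif and halts the cohesin complex as it extrudes chromatin loops. Pairs of CTCF sites that face each other often mark the ends of such loops and the borders of topological domains. Sites differ in how strongly and how constantly they are bound, and methylation of CG dinucleotides in the motif can block binding at some of them. H3K27ac marks active promoters and enhancers, so the intervals described here lie away from the marked regulatory elements of these neurons.

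To show what DNA these peaks cover, the peaks were set against RefSeq promoter windows (GRCh38.p14), each running from 250 bases before to 50 bases after an annotated start. The windows were available for 22 of the 23 chromosomes and numbered 34961. The selected peaks overlapped 271 of them, or 0.775% of all windows, belonging to 149 protein-coding and 93 long non-coding RNA genes. A core of the CTCF motif, searched on both strands as CCANNAG followed directly by NNGGC (N is any base), was present in 12 of the 271 windows (4.43%, 2.55 to 7.58%) and in 2.41% of all windows of that length. Among windows of protein-coding genes alone the shares were alike, at 4 of 165 (2.42%, 0.947 to 6.07%) and 2.52%. These 6 excerpts hold the core within 100 bp of the summit of a selected peak and show the letters a reader would look for at a bound site. The core or its reverse complement is in capitals.
LIMS2 (chr2:127675509-127675548, minus strand): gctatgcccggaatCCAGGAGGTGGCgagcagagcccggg
KCNJ5-AS1 (chr11:128906065-128906104, minus strand): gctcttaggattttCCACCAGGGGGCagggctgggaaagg
GCAWKR (chr15:100849672-100849711, plus strand): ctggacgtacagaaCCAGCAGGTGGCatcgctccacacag
RERG-AS1 (chr12:15151673-15151706, plus strand): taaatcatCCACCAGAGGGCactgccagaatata
LINC01205 (chr3:109409974-109410013, plus strand): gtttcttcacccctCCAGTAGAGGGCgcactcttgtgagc
LINC01191 (chr2:113979677-113979716, plus strand): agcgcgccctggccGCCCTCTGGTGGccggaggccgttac

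The next 4 sequences show promoters among these peaks that differ in their number of CG dinucleotides and hold no exact core. In the windows of DMRT3 and RNF39 the best match differed from the core by 1 fixed letter. In those of CCNO and C2CD4A it differed by 2. They are the 250 bases before the start of the protein-coding genes with the strongest selected peaks whose summits fell in that stretch, chosen after their values were seen. CG dinucleotides are in capitals. DMRT3 encodes a transcription factor of spinal interneurons, CCNO a cyclin-like protein of multiciliated cells, and RNF39 a RING finger protein encoded in the major histocompatibility complex region.
DMRT3 (chr9:976405-976654, plus strand): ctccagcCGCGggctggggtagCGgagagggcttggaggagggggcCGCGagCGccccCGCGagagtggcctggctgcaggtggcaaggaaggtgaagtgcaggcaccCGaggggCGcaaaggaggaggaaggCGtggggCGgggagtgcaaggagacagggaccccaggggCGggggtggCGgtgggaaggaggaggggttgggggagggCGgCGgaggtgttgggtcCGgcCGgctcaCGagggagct
CCNO (chr5:55232992-55233241, minus strand): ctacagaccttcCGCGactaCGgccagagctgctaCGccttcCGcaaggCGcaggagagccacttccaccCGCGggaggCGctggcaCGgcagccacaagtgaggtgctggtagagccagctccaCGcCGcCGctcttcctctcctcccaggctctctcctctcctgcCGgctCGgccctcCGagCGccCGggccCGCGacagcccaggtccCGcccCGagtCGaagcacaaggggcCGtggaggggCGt
C2CD4A (chr15:62066727-62066976, plus strand): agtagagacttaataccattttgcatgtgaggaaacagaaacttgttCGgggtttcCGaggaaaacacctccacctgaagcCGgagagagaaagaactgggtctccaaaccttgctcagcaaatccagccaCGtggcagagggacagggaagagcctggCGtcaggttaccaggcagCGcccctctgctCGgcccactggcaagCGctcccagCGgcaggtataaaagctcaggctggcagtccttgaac
RNF39 (chr6:30075770-30076019, minus strand): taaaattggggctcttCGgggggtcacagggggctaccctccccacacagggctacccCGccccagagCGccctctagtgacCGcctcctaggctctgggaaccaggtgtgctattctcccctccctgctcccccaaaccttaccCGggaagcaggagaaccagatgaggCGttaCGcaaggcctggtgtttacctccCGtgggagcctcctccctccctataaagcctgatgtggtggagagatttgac

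The upstream stretches of DMRT3 and CCNO held 19 and 25 CG dinucleotides, and those of C2CD4A and RNF39 held 9 and 8. The signals of the 4 peaks were close, at 54.5 for DMRT3, 54.3 for CCNO, 54.0 for C2CD4A and 53.0 for RNF39.

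The signal, whose scale the authors did not state, is described next. It comes from the list that supplied the width, so it is no independent check of the label of weak peaks. The 7361 peaks had a median signal of 38.4 with quartiles of 29.7 and 48.2, a lowest value of 9.13 and a highest of 88.6. When all CTCF intervals were ranked by signal into 10 equal groups, 1627, 2208, 2184, 1198 and 144 of the peaks fell into the lowest 5 groups and 0 into the others. CTCF intervals of other widths that were equally free of H3K27ac had a median signal of 143, with quartiles of 92.3 and 213. The 800-bp intervals that overlapped an H3K27ac peak had a median of 31.7, and those with an H3K27ac peak within 5 kb but no overlap had a median of 36.2. Among 800-bp intervals, those far from H3K27ac thus had the highest median signal. Their median lay above that of the H3K27ac-overlapping intervals on 23 of 23 chromosomes and above that of the nearby ones on 21.

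A q-value above 0.05 was attached to 612 of the selected peaks (8.31%), against 4.82% of all CTCF intervals. The share was 23.3% in 800-bp intervals overlapping H3K27ac and 14.3% in those near H3K27ac, and 1 of the 16958 far intervals of other widths had such a q-value. At the other end, 1055 of the selected peaks (14.3%) held the highest −log10 q in the list, 4.78, against 68.4% of all CTCF intervals. The share was 13.8% in 800-bp intervals near H3K27ac, 9.14% in those overlapping it and 97.4% in far intervals of other widths.

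**Figure D1:**
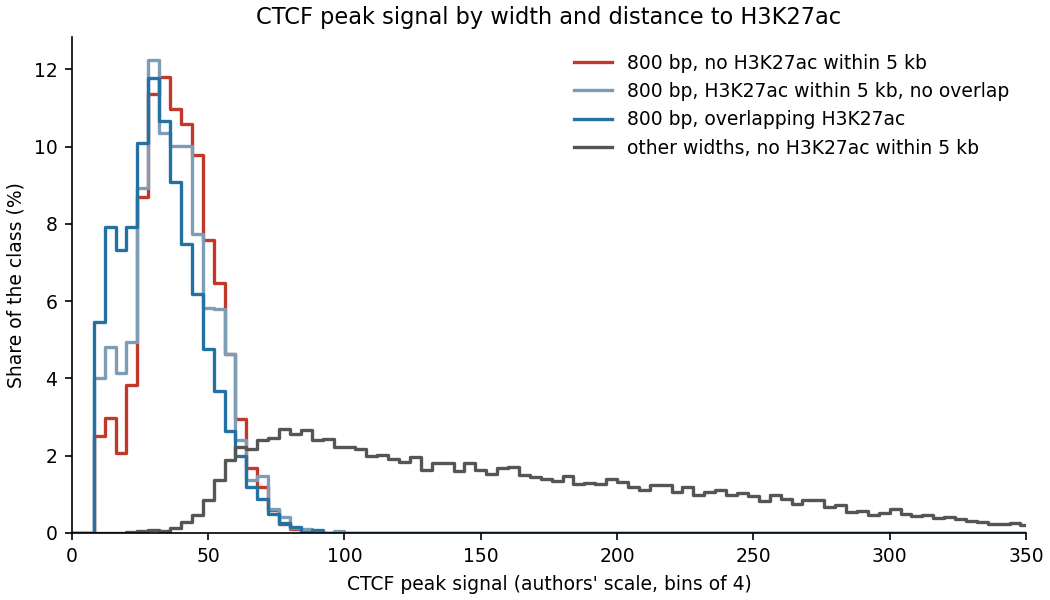
Distribution of the authors' CTCF peak signal (x axis, bins of 4, scale not stated) as a percentage of each class of intervals (y axis), for 4 classes defined by width and H3K27ac distance. The selected 800-bp peaks span 9.13 to 88.6 with a median of 38.4, and intervals of other widths with no H3K27ac within 5 kb have a median of 143.

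Each of the 5 selected peaks with the highest signal had the highest −log10 q. The first, inside ST6GALNAC5, a sialyltransferase gene (chr1:76900946-76901745), had a signal of 88.6 and lay 31.6 kb from the nearest H3K27ac peak. The next lay between JUN, which encodes a subunit of the AP-1 transcription factor, and FGGY (chr1:59289960-59290759). Its signal was 86.4, its nearest H3K27ac peak was 5.12 kb away, and its nearest CTCF neighbour was 408 kb away. A peak between OTUD7A and LOC124903441 (chr15:31975620-31976419) followed with 86.3 and had a CTCF neighbour of another width at 401 bp. The remaining 2 lay between LOC124901498 and C6orf118 (chr6:165049193-165049992, signal 85.0) and inside ATXN3, which encodes the deubiquitinase ataxin-3 (chr14:92093109-92093908, signal 83.6). The strongest selected peaks were thus found both inside genes and between them, and both isolated and beside another CTCF peak.

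Values on either side of the 5 kb limit are given as a description. The peaks just beyond it were 1 between TNP1 and TNS1 (chr2:217043758-217044557) at 5002 bp from H3K27ac with a signal of 28.1, 1 in RAB2A at 5004 bp with 57.9, and 1 between CHLSN and ZFAND2A (chr7:1143959-1144758) at 5004 bp with 43.3. Just under it, at 4997 bp each, 800-bp intervals in MCC, TNFRSF14 and CADM4 had signals of 35.9, 44.8 and 26.99.

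The median distance from a selected peak to H3K27ac was 30.2 kb, against 26.9 kb for the far intervals of other widths. The signal of the selected peaks changed little with this distance. Its median was 36.5 in the 1155 peaks at 5 to 10 kb, 37.8 in the 1538 at 10 to 20 kb and 39.0 in the 2173 at 20 to 50 kb. It was 39.5 in the 1270 at 50 to 100 kb, 38.2 in the 767 at 100 to 200 kb, 40.2 in the 381 at 200 to 500 kb and 40.1 in the 77 beyond 500 kb. Over the same steps the median signal of far intervals of other widths went from 155 to 94.2. The share of selected peaks inside a protein-coding gene went from 59.8% at 5 to 10 kb to 18.2% beyond 500 kb, and that of the far intervals of other widths went from 53.5% to 13.8%.

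**Figure D2:**
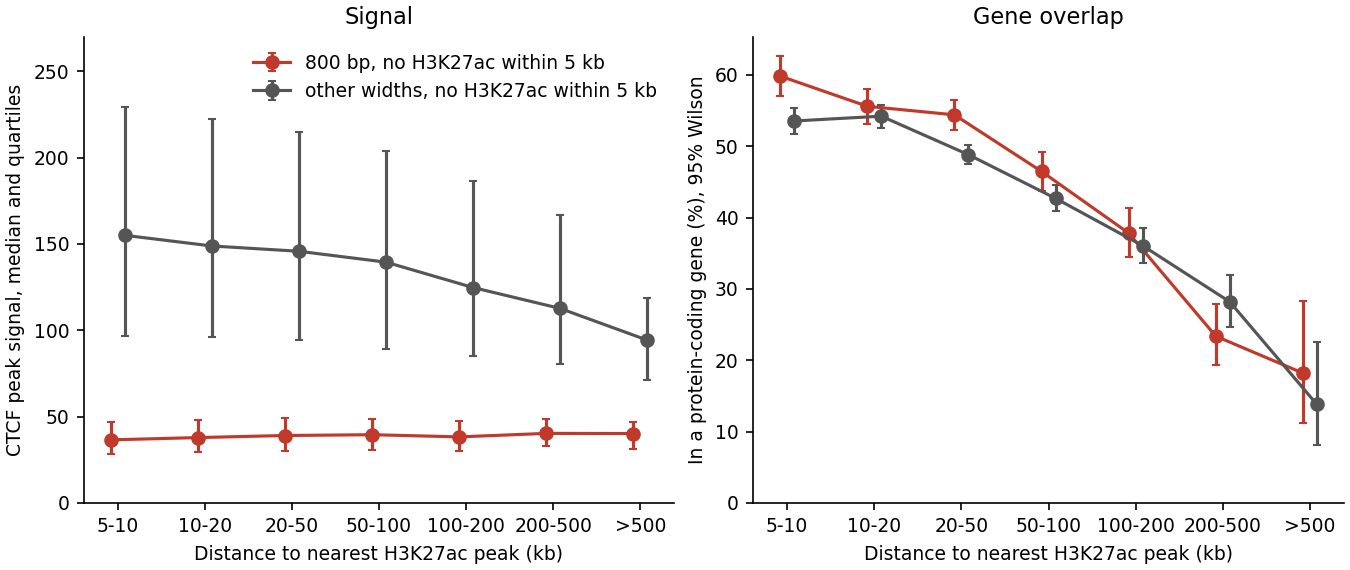
Median CTCF signal with quartiles (left, authors' scale) and share of intervals inside a protein-coding gene with 95% Wilson intervals (right, %), by distance to the nearest H3K27ac peak in kb. The median signal of the selected 800-bp peaks stays between 36.5 and 40.2 in every bin, whereas that of other widths runs from 155 to 94.2; the gene share is lower in the far bins for both.

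The peak farthest from H3K27ac, between LOC124903767 and SHCBP1 (chr16:35391170-35391969), was 3.52 Mb away and had a signal of 68.5. The next, between LOC124903442 and GOLGA6L6 (chr15:20341707-20342506), was 2.32 Mb away with a signal of 43.4. An overlapping pair between TPTE and POTED on chromosome 21 (chr21:10714700-10715499 and chr21:10714943-10715742) was 2.27 Mb away with signals of 24.7 and 10.9. A peak in TMEM132C (chr12:128644504-128645303) was 1.87 Mb from H3K27ac and 548 kb from its nearest CTCF neighbour, with a signal of 26.9. The signals of these 5 remote peaks spread over most of the range of the selected peaks.

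Where these peaks lay relative to genes was not used to choose them directly, although H3K27ac itself marks gene starts. A protein-coding gene was overlapped by 3711 of the 7361 peaks (50.4%, 49.3 to 51.6%), against 56.6% of all CTCF intervals. The share was 77.4% in 800-bp intervals overlapping H3K27ac, 64.3% in those near it and 47.8% (47.0 to 48.5%) in far intervals of other widths. The selected peaks had the lower share against the H3K27ac-overlapping intervals on 23 of 23 chromosomes and the higher share against far intervals of other widths on 19. Any annotated gene was overlapped by 64.4% of the selected peaks, against 68.7% of all CTCF intervals. The intervals in this and the following shares cover counting error only, and with 1 pooled list no test of the differences was made.

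Gene ends lay near fewer of the selected peaks than of the 800-bp intervals that overlapped H3K27ac. The rule excluded H3K27ac, which marks gene starts, so this contrast is given only as a description. A start or end of a protein-coding gene lay within 1 kb of 550 selected peaks (7.47%, 6.89 to 8.09%), against 19.4% of all CTCF intervals. The share was 52.9% in 800-bp intervals overlapping H3K27ac and 13.2% in those near H3K27ac. In far intervals of other widths it was 5.73% (5.39 to 6.09%). A promoter window was overlapped by 252 of the 7019 selected peaks on the 22 chromosomes with windows (3.59%, 3.18 to 4.05%). The share was 11.9% in all CTCF intervals and 40.2% in the 800-bp intervals overlapping H3K27ac. It was 4.51% in those near H3K27ac and 2.56% (2.33 to 2.82%) in far intervals of other widths. Pseudogenes were overlapped by 174 selected peaks (2.36%, 2.04 to 2.74%) and by 1.66% (1.48 to 1.86%) of far intervals of other widths.

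**Figure D3:**
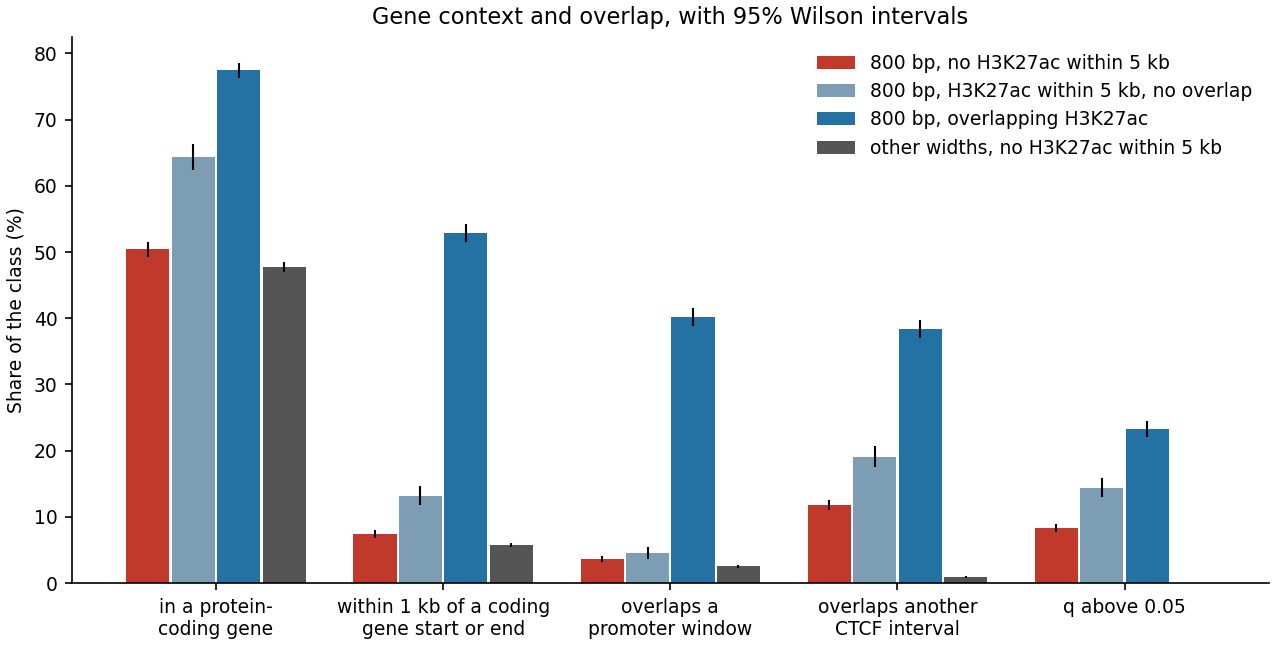
Share of intervals (y axis, %) in each of 4 classes that overlap or lie near genes, overlap another CTCF interval, or have q above 0.05, with 95% Wilson intervals as error bars. The selected 800-bp peaks sit near the far intervals of other widths for gene context (50.4% and 47.8% in a protein-coding gene) but above them for overlap with another CTCF interval (11.8% and 0.914%), a measure that depends on interval width.

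The promoters that the selected peaks did overlap were richer in CG than other promoters without H3K27ac. Their 271 windows held a median of 21 CG dinucleotides per 300 bases (quartiles 8 and 30) and a median GC content of 64.3%. All 14831 promoter windows with no H3K27ac peak within 5 kb held a median of 4 (quartiles 2 and 10) and a median GC content of 49%. Among windows of protein-coding genes alone, the 165 overlapped by a selected peak held a median of 23 (quartiles 13 and 31), against 6 (quartiles 2 and 17) in the 6896 with no H3K27ac peak within 5 kb. Windows overlapped by H3K27ac-overlapping 800-bp intervals held a median of 28, and those overlapped by far intervals of other widths held 16. The 98 windows overlapped by 800-bp intervals near H3K27ac were like those of the selected peaks. They held a median of 21 and a median GC content of 63.7%. The median ratio of CG observed to CG expected from the C and G content was 0.682 in the windows of the selected peaks. It was 0.710 in those of 800-bp intervals near H3K27ac, 0.611 in those of far intervals of other widths and 0.253 in all windows free of H3K27ac. The 271 windows of the selected peaks describe the 252 peaks at promoters and not the other selected peaks, whose sequence was not analysed here.

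The exact core motif was less frequent in these windows than in those of far intervals of other widths, of which 16.5% (13.4 to 20.1%) held it. Of the windows overlapped by H3K27ac-overlapping 800-bp intervals, 2.48% (1.91 to 3.20%) held it, as did 2.13% of all windows with no H3K27ac peak within 5 kb. Of the 98 windows overlapped by 800-bp intervals near H3K27ac, 5 held it (5.10%, 2.20 to 11.4%), a share near that of the selected peaks. Restricting to windows that contained the summit gave 5.41% (2.50 to 11.3%) for 111 windows of the selected peaks and 23.9% (19.5 to 29.0%) for those of other widths. The difference between the 2 classes was therefore not confined to windows at the edge of a peak.

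The position of the core relative to the summit was also compared. Among the 13 pairs of a selected peak and a window with the core, it lay within 20 bp of the summit in 5 and within 100 bp in 6, with a median distance of 231 bp. Among 76 such pairs of far intervals of other widths, 63 were within 20 bp and 73 within 100 bp, with a median of 7 bp. The 67 pairs of H3K27ac-overlapping 800-bp intervals had 20 within 100 bp and a median of 240 bp. The 5 pairs of 800-bp intervals near H3K27ac had 4 within 20 bp, the same 4 within 100 bp and a median of 15 bp. The number of pairs was small, and whether these distances depended on the interval width was not tested. In the window of LIMS2, which encodes a focal adhesion protein, the core printed above lay 6 bp from a summit with a signal of 52.5. The core lay 1 bp from the summit at KCNJ5-AS1, an RNA antisense to a potassium channel gene, with a signal of 47.3. At GCAWKR it also lay 1 bp away, with a signal of 46.7, and at the antisense RNA RERG-AS1 it lay 16 bp away, with 30.9. LINC01205 had it 5 bp away with a signal of 26.99. Over the 6 pairs within 100 bp the signal ran from 26.99 to 52.5 with a median of 38.8, close to that of all selected peaks. Over the other 7 pairs it ran from 13.9 to 59.8 with a median of 18.95. In the pair with the signal of 59.8 the core lay 635 bp from the summit, outside the peak.

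**Figure D4:**
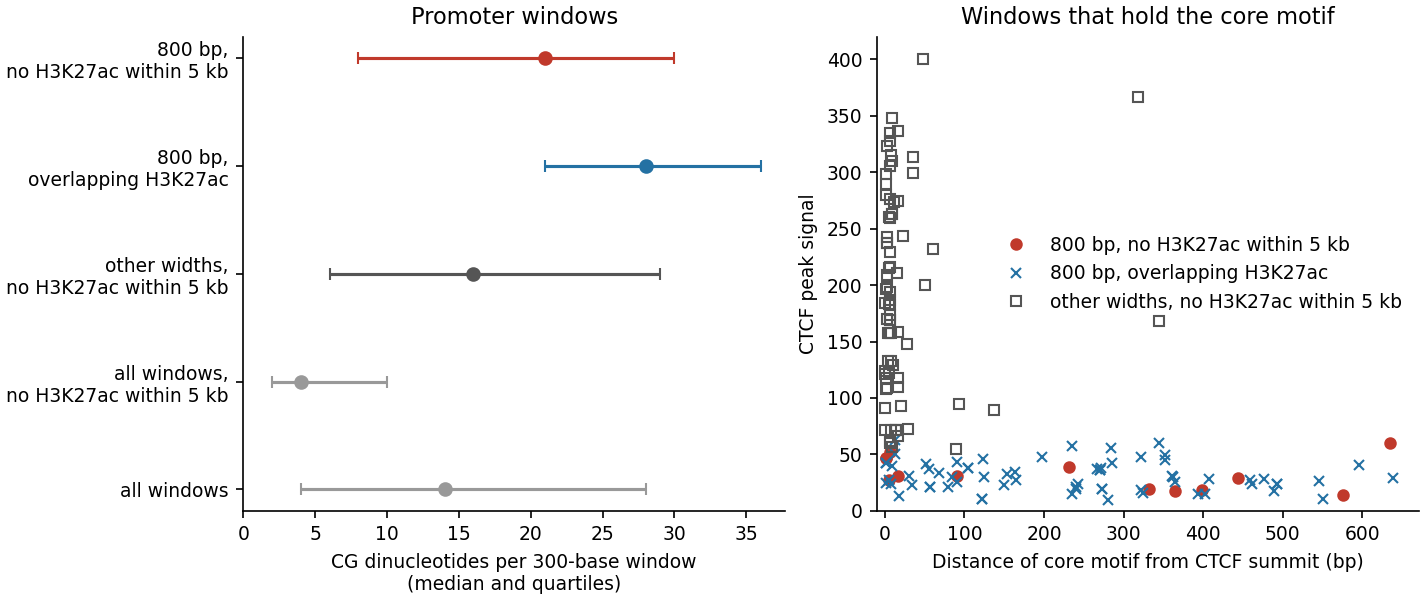
Left, CG dinucleotides per 300-base promoter window (median as point, quartiles as bars) for windows overlapped by 3 classes of CTCF intervals, for all windows with no H3K27ac within 5 kb and for all windows. Right, CTCF signal (authors' scale) against the distance in bp from the summit to the core motif, 1 symbol per pair of peak and window. The pairs of other widths gather near 0 bp (63 of 76 within 20 bp) and the selected peaks do not (5 of 13). Of those 13 cores, 10 lie inside the selected peak, and wider intervals allow longer distances.

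The strongest selected peaks that overlapped promoter windows of protein-coding genes were at genes of varied function. They overlapped the windows of ITLN2, an intelectin gene (signal 68.1), WT1, a zinc finger transcription factor of kidney and gonad (61.5), and EML2, a microtubule-binding protein (60.9). They were followed by HSPA2, a heat shock protein abundant in testis (59.96), and the cytokine gene IL13 (59.8). Relative to the annotated start (negative is upstream), their summits lay at 413 bp for ITLN2, -635 for WT1, 200 for EML2, -275 for HSPA2 and 20 for IL13. Only the summit at IL13 thus fell inside its window. The peaks at WT1, HSPA2 and IL13 lay 43.9, 25.8 and 80.0 kb from H3K27ac, and those at ITLN2 and EML2 lay 16.5 and 6.14 kb away. CG content varied among the 5 windows, from 5 per 300 bases at ITLN2 to 37 at IL13, with 17 at WT1, 21 at HSPA2 and 23 at EML2.

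Some of the selected peaks overlapped one another. Of the 7361, 866 (11.8%) overlapped another CTCF interval, against 9.04% of all CTCF intervals, 38.3% of the 800-bp intervals overlapping H3K27ac and 0.914% of far intervals of other widths. Overlap depends on the interval width, which the rule fixed at 800 bp, so the distance between summits was also compared, whatever the widths. Another CTCF summit lay within 800 bp of 880 selected peaks (11.95%, 11.2 to 12.7%), against 10.6% of all CTCF intervals and 1.85% (1.66 to 2.07%) of far intervals of other widths. Within 2000 bp the shares were 16.04% and 7.77%, and within 400 bp they were 8.34% and 0.749%. There were 449 overlapping pairs of selected peaks, which involved 793 peaks, and merging them left 6944 separate intervals. The summits of a pair were 199 to 738 bp apart, with a median of 321 bp. The stronger peak of a pair had a median signal of 30.4 and the weaker 13.9.

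Overlap moved with low signal and with a high q-value. The 866 overlapping peaks had a median signal of 20.5 and the others 39.98. Of the 612 selected peaks with q above 0.05, 456 (74.5%) overlapped another CTCF interval. Put the other way, 52.7% of the overlapping peaks and 2.40% of the others had such a q-value. Whether the caller divided single regions into several intervals was not tested.

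The overlapping peaks also lay at gene ends more often. A promoter window was overlapped by 73 of 845 (8.64%, 6.93 to 10.7%) of them and by 179 of 6174 (2.90%, 2.51 to 3.35%) of the others. A start or end of a protein-coding gene was within 1 kb of 17.8% and 6.10%. The 60 promoter windows of overlapping peaks held a median of 27.5 CG dinucleotides and a GC content of 70.8%, and the 211 windows of the others held 18 and 62.3%. The high CG content of promoter windows was thus seen in both groups.

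Chains of 3 or more overlapping selected peaks occurred 36 times. The longest, 5 intervals over 2144 bp at the potassium channel gene KCNK12, had signals from 15.7 to 49.4. Chains of 4 lay in the neuronal gene NAV2 (signals 10.4 to 14.04), in TMEM255B (10.6 to 29.0) and at an end of ASIC2, which encodes an acid-sensing ion channel (chr17:34155525-34157428, 9.92 to 15.1). Of the 35 chains on chromosomes with promoter windows, 7 touched a window.

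Most selected peaks were single and some were isolated. The median gap to the nearest other CTCF interval was 17.6 kb (quartiles 4.71 and 48.2 kb), against 16.3 kb for far intervals of other widths and 1.67 kb for 800-bp intervals overlapping H3K27ac. No other CTCF interval lay within 50 kb of 1765 of them (24.0%), compared with 19.4% of the far intervals of other widths. Within 100 kb the shares were 10.7% and 6.79%. The nearest CTCF interval was another selected peak for 30.2% and a far interval of another width for 45.3%.

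The protein-coding genes that the selected peaks overlapped numbered 2746, which is 13.7% of the 19974 in the table. They were long, with a median length of 107 kb against 24.2 kb for all protein-coding genes. A single selected peak was found in 1984 of them and 5 or more in 37, whose median length was 698 kb. The 10 genes with most selected peaks, in ties by name, were led by ASIC2 with 10. In ASIC2, 9 of the 10 overlapped another CTCF interval and the median signal was 10.9 (9.92 to 41.5).

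PTPRD, which encodes a synaptic receptor phosphatase, shared the next highest count and showed a different arrangement. Its 8 selected peaks overlapped no other CTCF interval, had signals from 40.3 to 64.6 with a median of 47.5, and lay 40.3 to 376 kb from H3K27ac. ENTREP2 also held 8, with a median signal of 41.3. The GTPase-activating protein gene ARHGAP26, the semaphorin receptor gene PLXNA4 and the sortilin family receptor gene SORCS2 held 7 each, with medians of 27.6, 32.1 and 25.4. The calcium channel subunit gene CACNA2D3, the cadherin gene CDH13 and the orphan nuclear receptor gene ESRRG held 6 each, with medians of 40.8, 27.1 and 23.9. The median signals within these genes thus lay on both sides of the median of 38.4 over all selected peaks.

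Gene groups were then counted by the overlap of their members with a selected peak. Of 41 synaptic adhesion and axon guidance genes, 31 were overlapped, by 72 distinct peaks. These genes had a median length of 836 kb and 2.08 selected peaks per Mb of gene, against 3.01 per Mb over all protein-coding genes and 2.43 per Mb over the 771 protein-coding genes of 300 kb or more, of which 529 were overlapped. The group's high count thus came with long genes and not with more peaks per length. Examples were NRXN3, a presynaptic neurexin gene with 5 peaks (median signal 46.5), and TENM2, a teneurin gene with 4 (median signal 51.0). LSAMP, an adhesion protein gene of limbic neurons, had 4 (40.7), and the guidance ligand gene SLIT3 had 4 (37.1).

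Of 45 ion channel and synaptic receptor genes, 28 were overlapped, by 56 distinct peaks, or 2.79 per Mb of gene. That share of genes, 62.2%, was near the 68.6% of protein-coding genes of 300 kb or more, and the median length of the group was 403 kb. The kainate receptor gene GRIK4 held 5 with a median signal of 25.8, the calcium channel gene CACNA1C held 4 with 27.3, and the receptor tyrosine kinase gene ERBB4 held 4 with 40.4. Among 14 CTCF and cohesin genes 3 were overlapped, namely NIPBL, RAD21 and STAG2 (21.4%, 7.57 to 47.6%), a share near the 13.7% of all protein-coding genes.

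Among the 15 neuron markers, whose median length was 88.6 kb, 5 were overlapped (33.3%, 15.2 to 58.3%), against 13.7% of all protein-coding genes, whose median length was 24.2 kb. RBFOX3, the gene of the neuronal nuclear antigen NeuN, held 4 peaks with signals from 12.01 to 50.2. STMN2, a microtubule regulator of growing axons, held 1 with a signal of 60.2, ELAVL4 held 1 with 40.8, SYT1 held 1 with 34.4 and SNAP25 held 1 with 24.0. No selected peak overlapped any of the 11 neural progenitor markers, the 7 pluripotency markers found or the 12 liver and muscle markers. These lists held few and short genes, with median lengths of 9.35, 9.75 and 18.2 kb, and the upper bounds of their intervals, 25.9%, 35.4% and 24.2%, all lay above 13.7%. Of 13 astrocyte and oligodendrocyte markers 4 were overlapped (30.8%, 12.7 to 57.6%). They included the glutamate transporter gene SLC1A2 and SOX10, a transcription factor of oligodendrocytes, with 2 peaks each. The 13 glial markers were also short, with a median length of 15.3 kb. They had 9.78 selected peaks per Mb of gene, from 6 distinct peaks. The neuron markers had 3.30 per Mb and all protein-coding genes 3.01.

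Gene families in clusters were counted in the same way, beside the 13.7% of all protein-coding genes. Zinc finger genes, with a median length of 23.7 kb, were overlapped in 38 of 517 cases (7.35%), and olfactory receptor genes, with a median length of 2.94 kb, in 1.28%. Per Mb of gene the values of these families were 2.05 and 1.65 selected peaks, against 3.01 over all protein-coding genes. Keratin genes, with a median length of 6.43 kb, were overlapped in 4 of 55 cases (7.27%). Their 5 distinct peaks made 9.63 per Mb of gene, above the value over all protein-coding genes. Of 53 clustered protocadherin genes, with a median length of 110 kb, 32 were overlapped, but by only 7 distinct peaks, since many of these gene intervals overlap one another. Per Mb of gene the protocadherin value was 11.7 selected peaks, also above that over all protein-coding genes. None of these protocadherin genes was overlapped by a far interval of another width, against 5167 of all 19974 protein-coding genes. However, 44 of the 53 overlapped an H3K27ac peak, and intervals of other widths near H3K27ac were not counted for these genes.

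Immune receptor gene segments, which are joined by recombination only in lymphocytes, held 18 selected peaks out of 29 CTCF intervals at such segments. The other 11 were far intervals of other widths. Such segments were overlapped by 0.245% of selected peaks, 0.0649% of far intervals of other widths and 0.0668% of all CTCF intervals. The selected peaks were 7361 of the 24319 CTCF intervals with no H3K27ac peak within 5 kb. The T-cell receptor alpha segments held 8 with signals from 29.1 to 74.1, the highest at TRAV6. Immunoglobulin heavy chain segments held 4 and T-cell receptor beta segments 3. The segments of the kappa, lambda and T-cell receptor gamma loci held 1 each.

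By chromosome, the selected peaks numbered 2.50 per Mb over the genome. The densities were lowest on chromosomes X (1.97) and 9 (2.02) and highest on chromosomes 22 (4.35), 17 (3.17) and 19 (3.12). As a share of CTCF intervals they made up from 10.2% on chromosome 19 to 24.9% on chromosome X. Chromosome X also had the lowest median signal in far intervals of other widths, at 99.6, whereas the median signal of its selected peaks was 38.6. Across the 23 chromosomes the median signal of the selected peaks ranged from 35.99 to 40.4.

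**Figure D5:**
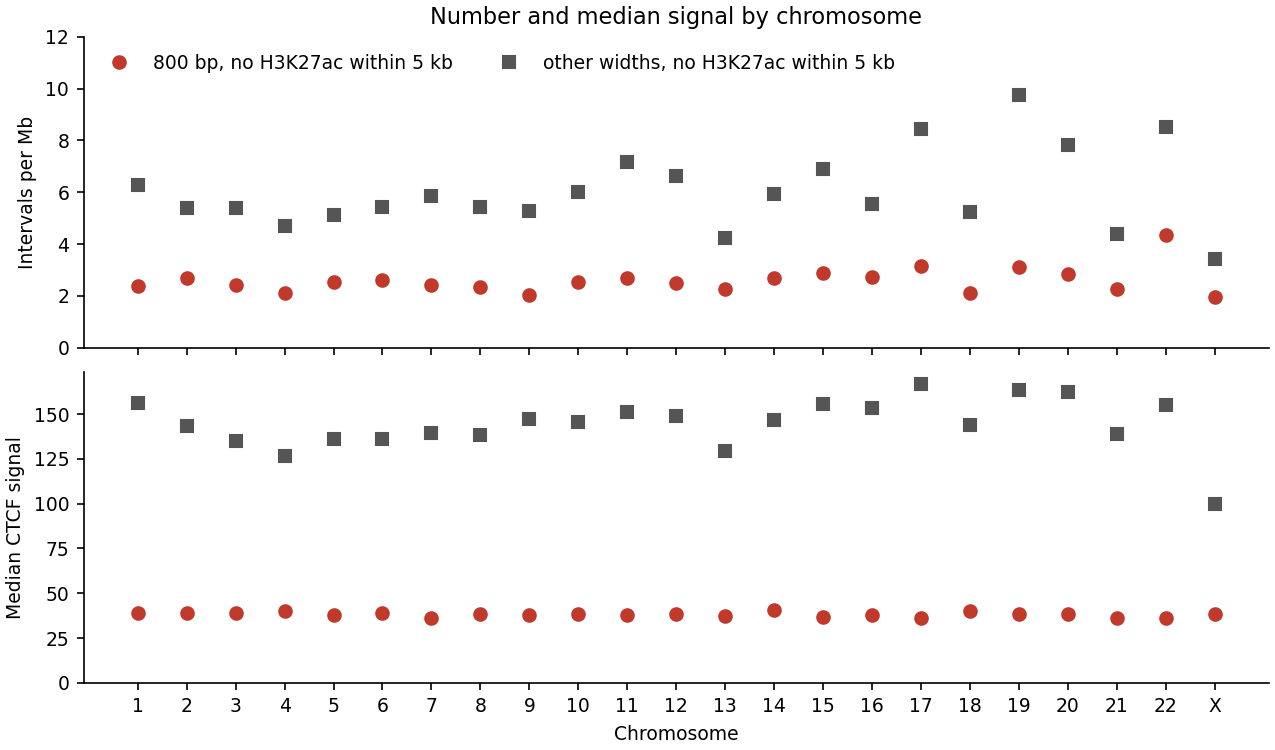
Intervals per Mb (top) and median CTCF signal on the authors' scale (bottom) on each chromosome for the selected 800-bp peaks and for other widths with no H3K27ac within 5 kb; each symbol is 1 chromosome in the pooled list. The median signal of the selected peaks ranges from 35.99 to 40.4, and that of other widths is lowest on chromosome X, at 99.6.

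In windows of 1 Mb, 2515 held at least 1 selected peak, with a median of 3, and 15 held 10 or more. The densest window (chr7:142000001-143000000), which covers the T-cell receptor beta locus and the trypsinogen genes PRSS1 and PRSS2, held 17 of them among 37 CTCF intervals and only 3 H3K27ac peaks. The windows chr16:87000001-88000000, with JPH3 and SLC7A5, and chr11:70000001-71000000, with ANO1 and SHANK2, held 13 and 12. In the latter, 11 of the 12 lay in protein-coding genes. The window chr2:241000001-242000000 held 12 and chr14:21000001-22000000 held 11, of which 5 overlapped T-cell receptor segments. The other 4 windows had 46 to 62 H3K27ac peaks each, so dense groups of selected peaks were found in windows both poor and rich in H3K27ac.

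Around MAPT, the gene the study is about, 9 selected peaks lay within 1 Mb, among 73 CTCF and 95 H3K27ac peaks, and 0 overlapped MAPT itself. Of the 9, 7 lay at lower coordinates than MAPT and 2 at higher ones, with a median signal of 29.9. In MAP3K14, a kinase gene, 1 peak (chr17:45306435-45307234) had a signal of 31.5. The transcript LINC02210-CRHR1, which runs into the corticotropin-releasing hormone receptor gene CRHR1, held 5. These were an overlapping pair with signals of 32.3 and 14.6 (chr17:45648490-45649289 and chr17:45649026-45649825), 1 peak with 34.9 (chr17:45719570-45720369) and 2 peaks that also lay within CRHR1. The latter 2, with signals of 19.8 (chr17:45784212-45785011) and 47.5 (chr17:45811936-45812735), were 48 and 591 bp from a CTCF interval of another width. A peak between CRHR1 and SPPL2C (chr17:45835858-45836657) had 28.0. The 2 peaks at higher coordinates, in the overlapping genes LRRC37A2 and WNT9B, had signals of 15.3 and 29.9. The q-value was above 0.05 for 3 of the 9. The median signal of the 9 was below the 38.4 of all selected peaks. They were 9 of the 73 CTCF peaks of the region, a share near the 12.6% of CTCF intervals on chromosome 17 and below the 16.9% of the whole list.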

How the data were processed

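ChIP-seq of CTCF and H3K27ac was carried out in KOLF2.1J neurons (2 libraries per antibody, 2 inputs). Per the submitters' processing notes, cutadapt 1.16 and build hg38 were used; aligner, peak caller and settings are not given in the sources used here. The authors deposited 1 list of 10 columns per antibody for both replicates, with 0 columns of per-sample values. Input values and signal tracks were not analysed here. In the deposited CTCF list the signal has no stated scale, −log10 q values reach 4.78, and scores assigned by the authors reach 1000. The deposited H3K27ac list holds a ratio (fold enrichment, judged from its values), −log10 q values and a score; only positions and q were used. Read depth is unknown, so shares carry 95% Wilson intervals for counting error only.

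CTCF rows on 23 chromosomes (43644 of 43677) were reduced to 43430 distinct intervals. Distances were measured between intervals and coordinates are 1-based. Gene intervals (without strand) and promoter sequences came from RefSeq GRCh38.p14, whose build matches the one in the notes. Values were computed with Python 3.11.15, pandas 2.3.3, numpy 2.4.6 and scipy 1.17.1, and the interval and motif functions were tested on simulated data. Named items were the 5 strongest and 5 farthest peaks, 3 on either side of the limit and those within 1 Mb of MAPT. Also named were the 10 genes and 5 windows with most peaks, and the 5 strongest that overlapped coding promoter windows. Within gene lists, those with most peaks and a few picked as examples were named. A gene that this rule names is not reported here. The members and lists were chosen with earlier results of these data known. Planned motif, GC and repeat measures in the 800-bp intervals needed a genome and were replaced by promoter windows. Alternatives covered the H3K27ac distance, the gene windows, neighbours, the motif match and the members used.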

Additional observations from a re-analysis of the deposited data

How the results depend on the processing

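No paired analysis was possible because each list covers both replicates and holds no value of a single one, so leaving out a replicate could not be run either. The motif, GC and repeat alternatives in the 800-bp intervals were not run. Of 27 alternatives of values that have a 95% interval, 9 stayed inside it and 18 did not. The share of CTCF intervals, 16.9% at 5 kb, was 22.1% with no H3K27ac overlap, 20.3% at 1 kb, 14.3% at 10 kb, 5.74% at 50 kb and 17.4% between summits. The median signal, 38.4, was 37.9 with no H3K27ac overlap and 39.3 at 50 kb. In alternatives chosen after seeing the data it was 39.98 without peaks overlapping another CTCF interval and 39.99 with q under 0.05. The share in protein-coding genes, 50.4%, was 49.0% for summits, 64.4% for all annotated genes and 39.4% at 50 kb. The share near a gene start or end, 7.47%, was 16.5% within 5 kb and 3.34% for overlap. The median gap to the next CTCF interval, 17.6 kb, was 29.1 kb for neighbours of other widths. The share overlapping another CTCF interval, 11.8%, was 8.34% for summits within 400 bp and 16.04% within 2000 bp, also chosen after seeing the data. The chromosome median was 2.55 per Mb or, in another unit, 17.1% of CTCF intervals, and the 9 peaks within 1 Mb of MAPT were 6 within 500 kb. The motif share in promoter windows, 4.43%, was 42.4% with at most 1 fixed letter different, against 32.9% of all windows. That alternative was also chosen after seeing the data. The cause of these changes was not tested beyond the definitions themselves. Read depth, which limits detection of weak peaks, was unknown.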
